A study of Mus musculus with 34 samples.

Results

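The genes of intracellular lipolysis followed here were *Pnpla2*, *Pnpla3*, *Lipe*, *Mgll*, *Abhd5*, *G0s2*, and *Aqp7*, 7 of the 23109 genes in the RNA-Seq tables. They were chosen by name for their role in lipid breakdown, and each was read from its RefSeq transcript with the highest mean RPKM over 14 libraries. RPKM scales reads to transcript length and sequencing depth, so it compares levels per length. All 14 libraries came from brown preadipocytes immortalized with SV40T, which are precursors of brown fat cells. The sample labels give the strain C57BL/6J and a floxed glucocorticoid receptor gene in every library, with a control or Cre vector, whereas the paper describes preadipocytes from newborn WT mice.

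In the first experiment, retroviral FLAG-tagged histone H3.3, either WT or with lysine 36 changed to methionine (K36M), was expressed, and cells were collected before (D0), during (D2), and after (D7) adipogenesis. K36M depletes methylation of lysine 36 on histone H3. The induction medium held insulin, T3, dexamethasone, indomethacin, and IBMX, a phosphodiesterase inhibitor that raises cAMP, and the later medium held insulin and T3. In the second experiment, the WT and K36M cells also carried a retroviral PPARγ and received DMSO or the PPARγ ligand Rosiglitazone (Rosi) without induction medium. The labels place the DMSO libraries at 0 h and the Rosi libraries at 24 h, so the ligand and the time in culture cannot be told apart if the labels hold. In the third experiment, lentiviral control (Ctrl) or Nsd2 knockdown (KD) shRNA was used and cells were collected at D0 and D2. Nsd2 is a methyltransferase of lysine 36 on histone H3.

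Each condition had 1 library, so no difference has a replicate check and no p-value is given. Whole reads were recovered from the RPKM, and the 95% intervals are intervals of these reads. Such an interval holds the error of counting alone, between these libraries rather than between conditions. Mapped reads ranged from 12213559 to 24365867 per library, at which 3 reads of a 1 kb transcript were worth an RPKM of 0.123 to 0.246. *Nsd2* itself was at 5.85 RPKM in KD and 19.9 in Ctrl cells at D0, and at 7.01 and 29.0 at D2, with log2 ratios of -1.77 and -2.05. Among 8 adipocyte markers, the summed RPKM went from 60.2 to 3705 between D0 and D2 in WT cells, of which *Fabp4* alone was 37.6 and 3249. The brown fat markers *Ucp1* and *Cidea* stayed at or below 0.194 and 0.0973 RPKM in all 14 libraries, so the brown identity in the labels was not visible in these markers. Preadipocyte and fibroblast markers summed to between 45.0 and 1849, while endothelial markers summed to at most 2.47 and muscle markers to at most 4.02.

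Lipolysis releases fatty acids from the triglyceride of lipid droplets in sequence. ATGL, the product of *Pnpla2*, removes the first fatty acid, hormone-sensitive lipase, the product of *Lipe*, acts on the diglyceride, and monoglyceride lipase, the product of *Mgll*, frees the last fatty acid and glycerol. ATGL is activated by ABHD5 and inhibited by G0S2, and cAMP signaling from β-adrenergic receptors frees ABHD5 from perilipin 1 and activates hormone-sensitive lipase. AQP7 is a channel through which fat cells release glycerol, and *Pnpla3* encodes adiponutrin, a relative of ATGL on lipid droplets that follows feeding and lipid synthesis. In brown fat, the fatty acids fuel and activate heat production.

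On mm9, *Pnpla2* lay on the plus strand at chr7:148641097-148646642, *Lipe* on the minus strand at chr7:26164546-26183729, *Mgll* on the plus strand at chr6:88674406-88778354, *Pnpla3* on the plus strand at chr15:83998246-84019942, *Abhd5* on the plus strand at chr9:122260726-122290642, *G0s2* on the minus strand at chr1:195098355-195099382, and *Aqp7* on the minus strand at chr4:40980107-40995172. The gene span of *Lipe* overlaps 4732471J01Rik on the opposite strand, which had at most 3.58 RPKM, and the first bases of *Mgll* overlap the opposite-strand lincRNA Gm16628. Whether strand was used in counting is not given in the sources used here, so reads of such pairs cannot be told apart. The 250 bases before 10 annotated RefSeq starts of the 7 genes were searched on both strands for the nuclear receptor core motif AGGTCA, a direct repeat of it spaced by 1 base (the kind of element that PPARγ binds with RXR), the C/EBP motif TTGCNNAA, the cAMP response element TGACGTCA, and TATAAA. Every window matched mm9 at 1 place, and the repeat, the C/EBP motif, and TATAAA were in none of the 10 windows. These letters are in 0.0335%, 9.56%, and 12.4% of 32851 mouse promoter windows of the same length. No match says only that the letters are not in these windows.

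Shown first are the windows of the genes whose levels were most alike, *Pnpla2* (chr7:148640837-148641086, plus strand), *Lipe* at its upstream start (chr7:26181007-26181256, minus strand) and its downstream start (chr7:26175132-26175381, minus strand), and *G0s2* (chr1:195099383-195099632, minus strand), which hold none of the searched motifs.
Pnpla2: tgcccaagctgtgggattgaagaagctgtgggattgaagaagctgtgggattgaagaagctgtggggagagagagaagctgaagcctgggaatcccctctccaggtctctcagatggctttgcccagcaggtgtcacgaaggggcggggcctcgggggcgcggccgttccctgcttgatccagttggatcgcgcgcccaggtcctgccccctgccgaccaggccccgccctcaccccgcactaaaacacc
Lipe upstream start: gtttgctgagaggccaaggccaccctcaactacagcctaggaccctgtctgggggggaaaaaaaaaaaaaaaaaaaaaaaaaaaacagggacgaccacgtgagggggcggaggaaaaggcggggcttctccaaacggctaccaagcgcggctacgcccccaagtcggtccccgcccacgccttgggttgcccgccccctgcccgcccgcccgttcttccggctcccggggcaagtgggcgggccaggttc
Lipe downstream start: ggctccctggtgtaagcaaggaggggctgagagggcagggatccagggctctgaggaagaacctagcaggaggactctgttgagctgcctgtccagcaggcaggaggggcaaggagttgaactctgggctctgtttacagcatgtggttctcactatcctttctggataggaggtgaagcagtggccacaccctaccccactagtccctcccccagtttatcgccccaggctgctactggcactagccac
G0s2: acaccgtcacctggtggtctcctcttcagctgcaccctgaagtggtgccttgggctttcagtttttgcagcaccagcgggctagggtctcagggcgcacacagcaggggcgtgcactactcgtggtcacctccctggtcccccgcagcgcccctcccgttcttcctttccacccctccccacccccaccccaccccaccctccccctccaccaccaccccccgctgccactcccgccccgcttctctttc

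The windows of *Abhd5* (chr9:122260484-122260733, plus strand), *Aqp7* at its downstream start (chr4:40994996-40995245, minus strand), and *Pnpla3* (chr15:83997996-83998245, plus strand) hold a match, in capitals. In *Abhd5* and *Aqp7* it is the core motif in its reverse direction, TGACCT, and in *Pnpla3* it is the cAMP response element, 46 bases before the start. The core motif is in 14.02% of all windows and the cAMP response element in 1.55%. The match in *Abhd5* begins 69 bases before the start, and those in *Aqp7* 223 and 101 bases before it, of which the farther is shared with the overlapping window of its upstream start. On the GENCODE M1 gene models, both *Lipe* windows and 1 of the 2 *Mgll* windows lie inside the gene's span, and the others lie before or across its first base.
Abhd5: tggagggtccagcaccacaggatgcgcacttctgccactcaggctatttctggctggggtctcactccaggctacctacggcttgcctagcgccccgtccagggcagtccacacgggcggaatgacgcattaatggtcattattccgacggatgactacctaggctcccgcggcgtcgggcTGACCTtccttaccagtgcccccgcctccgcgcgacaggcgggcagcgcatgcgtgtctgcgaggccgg
Aqp7 downstream start: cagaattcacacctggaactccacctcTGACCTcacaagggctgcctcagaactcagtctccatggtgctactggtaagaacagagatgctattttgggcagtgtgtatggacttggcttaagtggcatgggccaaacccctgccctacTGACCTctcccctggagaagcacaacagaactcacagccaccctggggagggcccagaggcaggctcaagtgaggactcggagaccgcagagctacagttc
Pnpla3: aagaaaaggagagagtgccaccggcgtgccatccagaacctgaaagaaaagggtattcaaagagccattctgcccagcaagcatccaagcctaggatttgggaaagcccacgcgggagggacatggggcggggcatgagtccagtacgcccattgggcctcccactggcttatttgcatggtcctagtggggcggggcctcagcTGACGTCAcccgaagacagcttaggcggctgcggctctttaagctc

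*Pnpla2*, the first lipase of the sequence, had 5.61, 141, and 236 RPKM at D0, D2, and D7 in WT cells, against 8.16, 71.9, and 17.8 in K36M cells. The PPARγ cells had 7.92 and 111 with DMSO and Rosi when WT, and 7.60 and 28.9 when K36M. In Ctrl cells it had 4.97 at D0 and 85.7 at D2, and in Nsd2 KD cells 3.77 and 13.1. The 6 libraries before induction or without Rosi were the lowest, and WT D7 was the highest, where *Pnpla2* ranked 106 among 23109 genes. Of the 13 neighboring pairs in this order, 3 were not separated by counting error, all among these 6 libraries.

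*Lipe* followed the same order at the top, with WT D7, WT D2, Rosi-treated WT, Ctrl D2, and K36M D2 cells highest. It had 1.73, 145, and 152 RPKM at D0, D2, and D7 in WT cells, against 1.59, 44.3, and 11.0 in K36M cells. The PPARγ cells had 5.38 with DMSO and 128 with Rosi when WT, and 3.40 and 13.2 when K36M. Ctrl cells had 1.58 and 74.8 at D0 and D2, and KD cells 1.38 and 3.08. Nsd2 KD cells at D2 thus stood beside the DMSO libraries for *Lipe*, and were not separated from K36M cells with DMSO by counting error.

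*Mgll*, the last lipase of the sequence, was the only member highest in a K36M library. It had 0.779, 38.0, and 27.01 RPKM at D0, D2, and D7 in WT cells, against 0.455, 62.0, and 7.58 in K36M cells. With ectopic PPARγ, the values were 0.338 and 6.67 with DMSO and Rosi when WT, and 0.846 and 3.12 when K36M. Ctrl cells had 0.372 and 13.1 at D0 and D2, and KD cells 0.778 and 3.52. *Mgll* reached 62.0 in K36M cells at D2 and no more than 6.67 with ectopic PPARγ and Rosi, unlike *Pnpla2*, *Lipe*, and *G0s2*, which passed 100 in Rosi-treated WT cells. Its 4 listed transcripts overlap and share reads, and the other 3 correlated with the one used at r of 0.98 or more over the 14 libraries.

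*Pnpla3* was near the smallest signal in most libraries. It had 0.0302, 0.124, and 5.99 RPKM at D0, D2, and D7 in WT cells, from 3, 11, and 371 reads, and 0.108, 0.223, and 0.299 in K36M cells. The PPARγ cells had 0.119 and 0.572 with DMSO and Rosi when WT, and 0.159 and 0.0849 when K36M. In Ctrl cells it had 2 reads at D0 and 3 at D2, and in KD cells 1 and 6. WT cells at D7 were thus the only library in which it passed 1 RPKM, and 11 of the 13 neighboring pairs in its order were not separated by counting error.

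*Abhd5*, the activator of ATGL, was the most even member, with a 23.7-fold range over the 14 libraries, against 62.7-fold for *Pnpla2* and 1232-fold for the inhibitor *G0s2*. *Abhd5* had 16.6, 137, and 61.7 RPKM at D0, D2, and D7 in WT cells, against 13.7, 60.0, and 20.5 in K36M cells. With ectopic PPARγ, the values were 8.85 and 26.7 with DMSO and Rosi when WT, and 7.67 and 11.2 when K36M. Ctrl cells had 8.15 and 61.5 at D0 and D2, and KD cells 5.78 and 19.1. It was the member with the highest RPKM in all 6 libraries before induction or without Rosi, where it made up 34.2% to 62.7% of the summed RPKM of the 7 genes.

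*G0s2* took that place in 6 of the other 8 libraries. It had 1.66, 165, and 335 RPKM at D0, D2, and D7 in WT cells, against 1.91, 53.1, and 24.9 in K36M cells. The PPARγ cells had 1.53 and 182 with DMSO and Rosi when WT, and 0.292 and 38.9 when K36M. Ctrl cells had 0.961 and 192 at D0 and D2, and KD cells 0.272 and 6.25. The lowest values, in KD cells at D0 and in K36M cells with DMSO, came from 4 and 6 reads, while WT cells at D7 ranked *G0s2* 58th among all genes.

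*Aqp7*, the glycerol channel, differed from the lipases in being highest with ectopic PPARγ. With ectopic PPARγ, the values were 1.73 and 17.8 RPKM with DMSO and Rosi when WT, and 1.59 and 4.54 when K36M. It had 0.0926, 0.850, and 5.47 at D0, D2, and D7 in WT cells, against 0.180, 2.12, and 0.746 in K36M cells. Ctrl cells had 0.0201 at D0, from 1 read, and 0.472 at D2, and KD cells had 0.296 and 0.202. Both DMSO libraries were above every D0 library and above Ctrl and WT cells at D2.

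**Figure D1:**
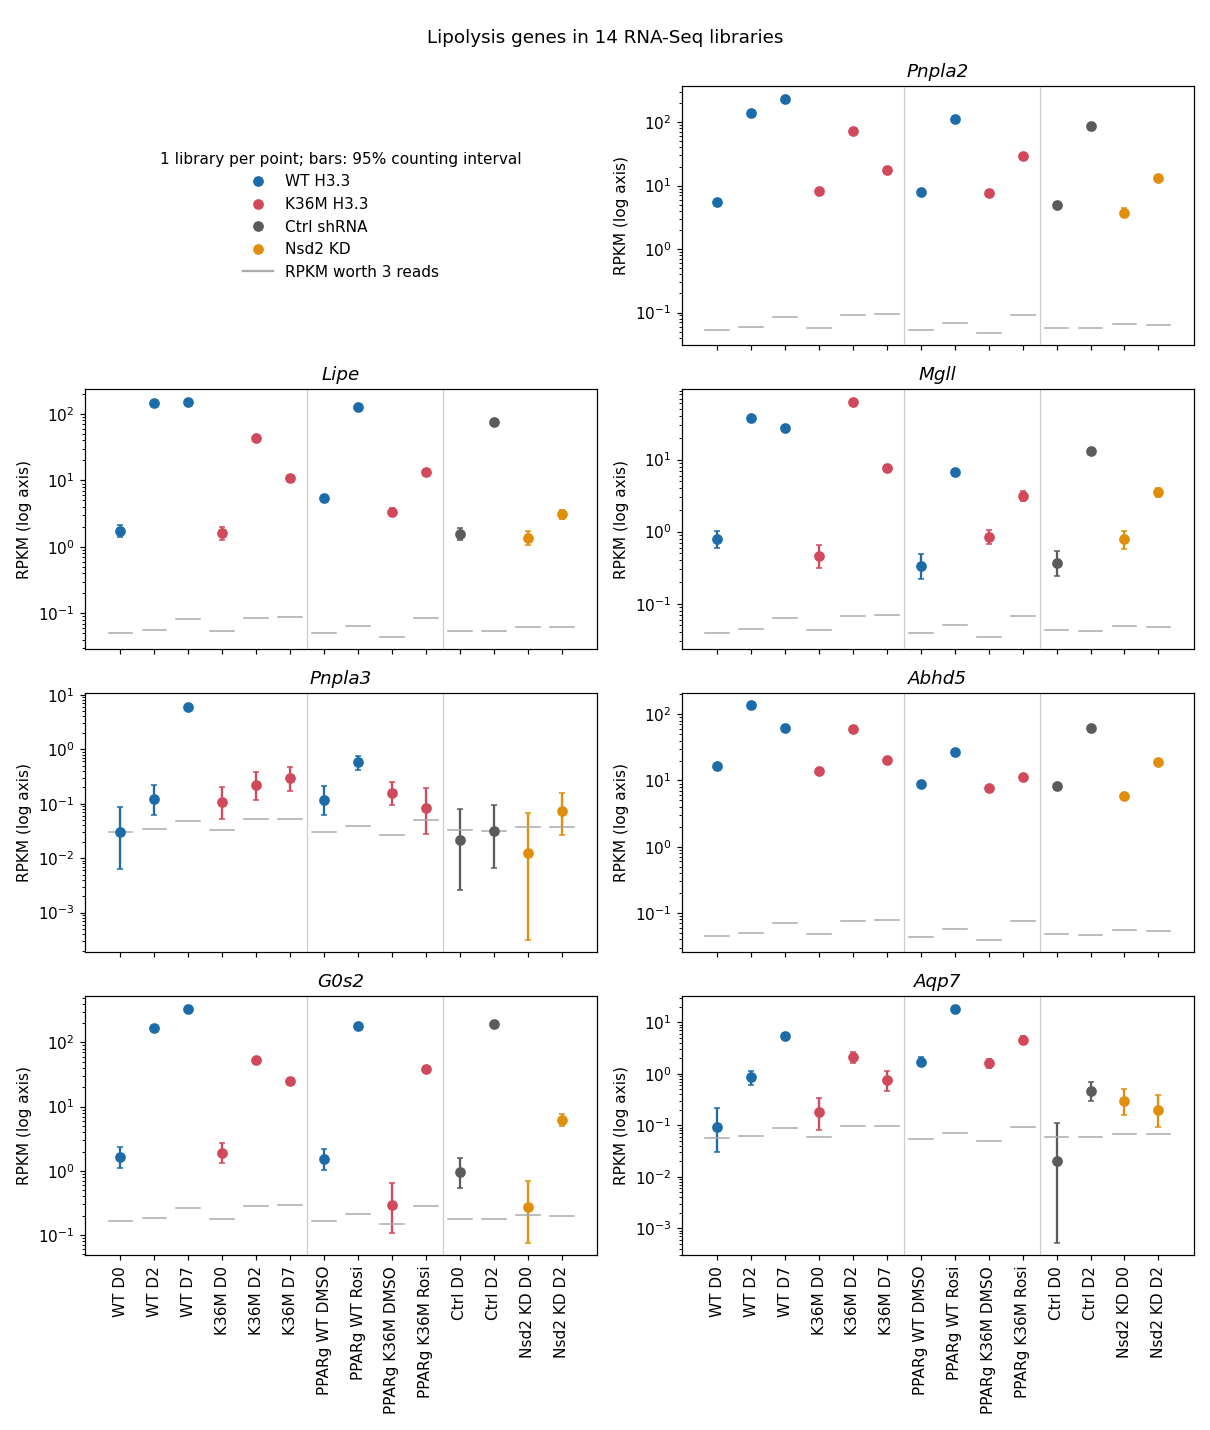
RPKM of each of the 7 lipolysis genes (log axis) in the 14 libraries, 1 point per library, with the 95% counting interval of its reads as a bar and the RPKM worth 3 reads as a gray line. *Mgll* is highest in K36M cells at D2 (62.0), *Aqp7* in Rosi-treated WT cells (17.8), *Abhd5* in WT cells at D2 (137), and the other 4 genes in WT cells at D7.

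From D0 to D2, all 7 genes were over 2-fold higher in WT cells, where 13.6% of all genes above 0 were. Their median log2 ratio was 4.65, and the median over all genes above 0 in both libraries was -0.044. *G0s2* had the largest ratio, 99.3-fold, followed by *Lipe* at 83.9-fold, *Mgll* at 48.8-fold, and *Pnpla2* at 25.2-fold, and *Abhd5* had 8.23-fold. The Ctrl cells of the Nsd2 experiment, which share no library with the WT cells, had 6 of 7 genes over 2-fold higher (17.3% of all genes), with a median log2 ratio of 4.56. That median was the ratio of *Aqp7*, from 24 reads against 1, with a log2 interval of 1.94 to 9.92. *Lipe* was 47.2-fold and *G0s2* 199-fold higher there, and *Pnpla3*, with 3 reads at D2, was 1.47-fold higher with a log2 interval of -2.57 to 4.14.

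In K36M cells, all 7 genes were again over 2-fold higher at D2 than D0 (16.5% of all genes), and the log2 ratio of *Pnpla3* had an interval that included 0. The size of the ratio was smaller than in WT cells for 4 genes and larger for 1, when the difference between the responses was set against counting error. On the log2 scale, the K36M response minus the WT response was -1.84 (95% counting interval -2.57 to -1.11) for *G0s2*, -1.60 (-2.01 to -1.18) for *Lipe*, -1.51 (-1.73 to -1.29) for *Pnpla2*, and -0.91 (-1.05 to -0.76) for *Abhd5*. For *Mgll* it was 1.48 (0.85 to 2.11), with a 136-fold ratio in K36M cells against 48.8-fold in WT cells. For *Aqp7* it was 0.36 (-1.31 to 2.04) and for *Pnpla3* -0.99 (-3.19 to 1.20), so no difference was detectable at this depth.

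In Nsd2 KD cells, 6 of 7 genes were over 2-fold higher at D2 than D0 (16.9% of all genes), with a median log2 ratio of 1.80. The 6 include *Pnpla3*, from 6 reads against 1, with a log2 interval of -0.48 to 8.09. The KD response minus the Ctrl response was -4.41 (-4.92 to -3.89) for *Lipe*, -3.12 (-4.73 to -1.51) for *G0s2*, -2.96 (-3.68 to -2.24) for *Mgll*, -2.31 (-2.61 to -2.01) for *Pnpla2*, and -1.19 (-1.42 to -0.97) for *Abhd5*. *Aqp7* was 1.46-fold lower at D2 than D0 in KD cells, with a log2 interval of -1.96 to 0.79. Its difference between the responses was -5.11 (-8.24 to -1.97), with 1 read in Ctrl cells at D0. For *Pnpla3* the difference was 2.01 (-1.99 to 6.01), so none was detectable at this depth. *Mgll* therefore had a smaller response in KD cells than in their control and a larger one in K36M cells than in theirs.

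From D2 to D7, WT cells had 3 genes over 2-fold higher (22.4% of all genes) and 1 lower (12.2%). *Pnpla3* was 48.4-fold, *Aqp7* 6.44-fold, and *G0s2* 2.03-fold higher, *Abhd5* was 2.22-fold lower, and *Pnpla2*, *Lipe*, and *Mgll* stayed within 2-fold. When each library was rescaled by its median ratio to the others, *G0s2* fell within 2-fold. K36M cells had 6 genes over 2-fold lower at D7 than D2 (14.9% of all genes), while 21.5% of all genes but none of the 7 were over 2-fold higher. *Mgll* was 8.17-fold lower, *Pnpla2* 4.05-fold, *Lipe* 4.02-fold, *Abhd5* 2.92-fold, *Aqp7* 2.84-fold, and *G0s2* 2.14-fold. The summed RPKM of the 7 genes thus went from 628 to 824 in WT cells and from 294 to 82.8 in K36M cells.

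Between D0 and D7 all 7 genes were over 2-fold higher in WT cells (15.6% of all genes), and 6 were in K36M cells (18.6%), where *Abhd5* was 1.50-fold higher. The smallest of these 6 ratios in K36M cells was 2.18-fold, for *Pnpla2*, against 42.1-fold in WT cells.

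**Figure D2:**
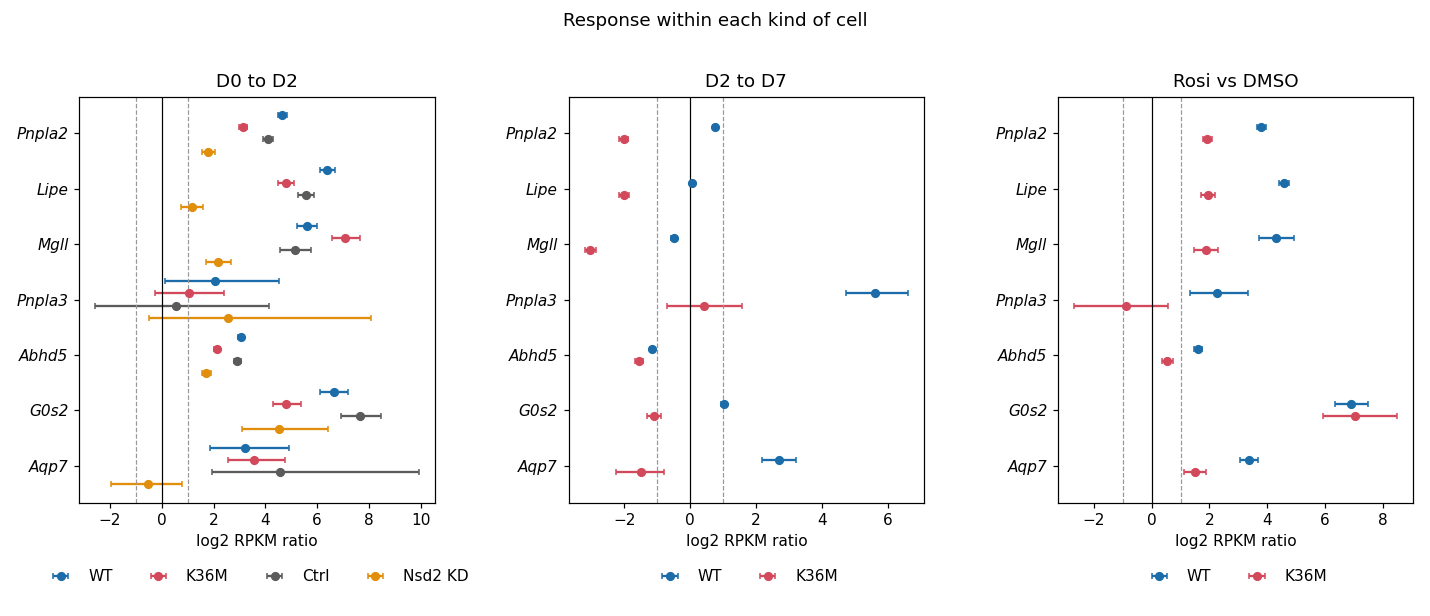
log2 RPKM ratio of each gene from D0 to D2, from D2 to D7, and from DMSO to Rosi, 1 point per kind of cell, with 95% counting intervals and dashed lines at a 2-fold ratio. In the D2 to D7 panel *Pnpla2*, *Lipe*, *G0s2*, and *Aqp7* are above 0 in WT (*Lipe* by only 0.063) and below 0 in K36M cells. In the D0 to D2 panel *Mgll* is the gene for which K36M cells (7.09) exceed WT cells (5.61) beyond the intervals.

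At D0, K36M cells differed little from WT cells in these genes. *Pnpla3* was the 1 gene over 2-fold higher (14.8% of all genes), from 10 reads against 3 with a log2 interval of -0.11 to 4.34. *Pnpla2* was 1.46-fold higher and *Mgll* 1.71-fold lower, both with intervals that excluded 0. The summed preadipocyte and fibroblast markers were 354 in K36M and 836 in WT cells, mostly *Col1a1* (223 and 560). *Thy1* alone of this list was higher in K36M cells (37.7 and 18.8), and the part of these markers was not tested.

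At D2, *Lipe* was 3.28-fold, *G0s2* 3.11-fold, and *Abhd5* 2.28-fold lower in K36M than WT cells, so 3 of 7 were over 2-fold lower (9.9% of all genes). *Pnpla2* was 1.96-fold lower and passed 2-fold when libraries were rescaled by the median ratio, where the median log2 ratio of all genes was 0.11 before rescaling. *Aqp7* was 2.49-fold higher, the 1 gene of 7 over 2-fold higher (22.2% of all genes), from 67 reads against 41. Among genes of at least 1 RPKM in either library, 4.37% were over 2-fold lower and 11.2% higher. *Mgll* was 1.63-fold higher, with a log2 ratio of 0.70 (0.63 to 0.78) from 2750 and 2573 reads. The diglyceride lipase and the monoglyceride lipase of the sequence thus differed in opposite directions between these libraries. Of the 8 adipocyte markers, 6 had at least 1 RPKM in both libraries, and *Cidea* was at 0 in both. The log2 ratios of these 6 were -2.21 for *Cebpa*, -1.37 for *Plin1*, -1.36 for *Cidec*, -1.14 for *Fabp4*, -0.43 for *Pparg*, and 0.79 (0.45 to 1.12) for *Adipoq*. The sum over the 8 markers went from 3705 in WT to 1646 in K36M cells and was mostly *Fabp4* (3249 and 1473), while the summed preadipocyte and fibroblast markers went from 99.2 to 277. The part of these markers in the result was not tested.

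At D7, all 7 genes were over 2-fold lower in K36M cells (13.2% of all genes), with a median log2 ratio of -3.73 against 0.13 over all genes. *Pnpla3* was 20.0-fold, *Lipe* 13.8-fold, *G0s2* 13.5-fold, *Pnpla2* 13.3-fold, and *Aqp7* 7.34-fold lower. *Mgll* at 3.56-fold and *Abhd5* at 3.01-fold differed least. The summed adipocyte markers went from 3644 in WT to 230 in K36M cells, a log2 ratio of -3.98, mostly *Fabp4* (2644 and 143). Single log2 ratios were -4.38 for *Cidec*, -4.21 for *Fabp4*, -3.95 for *Plin1*, -3.77 for *Adipoq*, -3.25 for *Cebpa*, and -2.24 for *Pparg*. *Cidea* was at 0 in both and *Ucp1* at 0 in K36M cells. The summed preadipocyte and fibroblast markers went from 674 to 1033. In such bulk libraries, fewer cells of a type and less RNA per cell cannot be told apart, and the part of these markers in the result was not tested.

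At D0, Nsd2 KD cells had 2 genes over 2-fold higher than Ctrl cells (13.5% of all genes) and 1 lower (18.1%), all 3 below 1 RPKM in both libraries. *Aqp7* had 13 reads in KD and 1 in Ctrl cells, with a log2 ratio of 3.88 (1.15 to 9.29). *Mgll* was 2.09-fold higher, and *G0s2* was 3.53-fold lower from 4 reads against 16. Preadipocyte and fibroblast markers summed to 477 in KD and 1849 in Ctrl cells, mostly *Col1a1* (263 and 1678). *Dlk1* (171 and 38.1) and *Cd34* (1.70 and 0.657) were higher in KD cells, and the other listed markers were lower. The part of these markers was not tested.

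At D2, 6 of 7 genes were over 2-fold lower in Nsd2 KD than Ctrl cells (18.5% of all genes), and the median log2 ratio was -1.89 against -0.037 over all genes. *G0s2* was 30.7-fold and *Lipe* 24.3-fold lower, followed by *Pnpla2* at 6.54-fold, *Mgll* at 3.71-fold, *Abhd5* at 3.23-fold, and *Aqp7* at 2.34-fold. *Pnpla3* was 2.28-fold higher, from 6 reads against 3, with a log2 interval that included 0 (12% of all genes were over 2-fold higher). *Mgll* had a log2 ratio of -1.89 (-2.11 to -1.68) here and 0.70 in K36M against WT cells at D2. The summed adipocyte markers were 58.2 in KD and 1427 in Ctrl cells, a log2 ratio of -4.62, mostly *Fabp4* (34.5 and 1269). Single log2 ratios were -5.20 for *Fabp4*, -4.66 for *Plin1*, -4.53 for *Cidec*, -4.22 for *Adipoq*, -4.03 for *Cebpa*, and -1.16 for *Pparg*. Of the 8 markers, 4 in KD and 6 in Ctrl cells had at least 1 RPKM, with *Ucp1* at 0 in KD and *Cidea* at 0 in Ctrl cells. Preadipocyte and fibroblast markers were also lower in sum, at 45.0 in KD and 121 in Ctrl cells. Most of the Ctrl sum was *Col1a1* (13.7 in KD and 89.9 in Ctrl cells). *Dlk1* alone of this list was higher in KD cells, at 27.9 against 3.51, with a log2 ratio of 2.99 (2.82 to 3.17). The part of either list in the result was not tested.

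**Figure D3:**
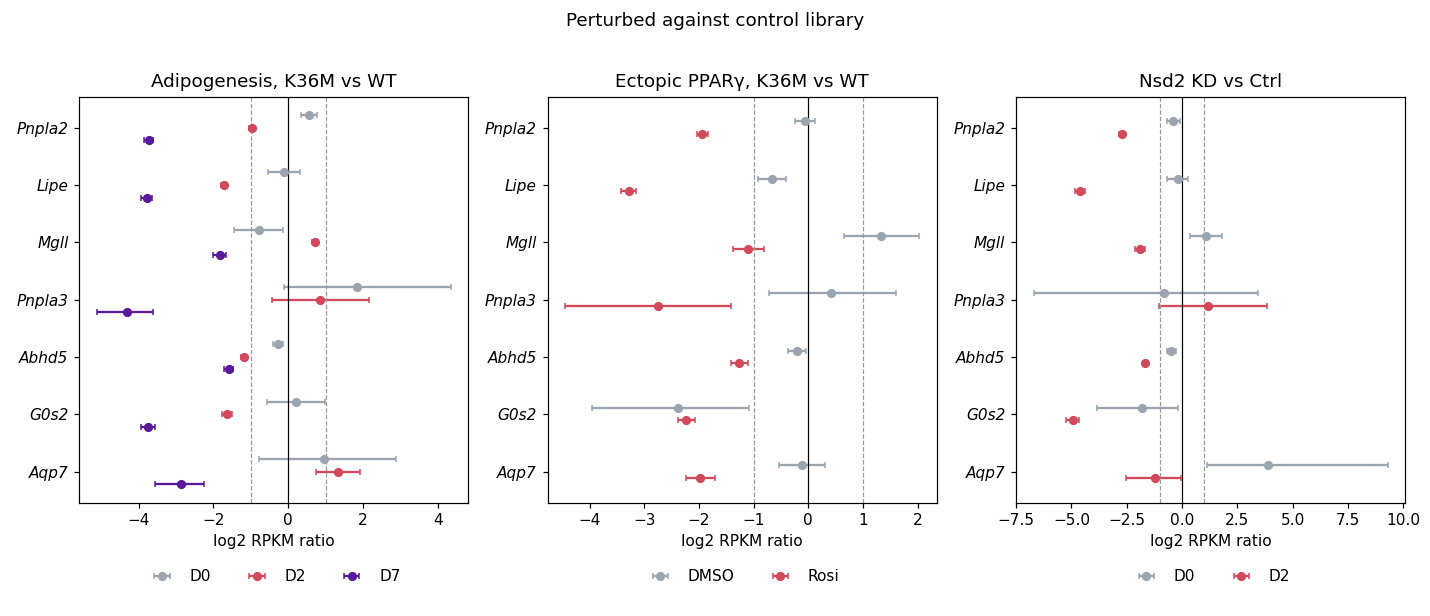
log2 RPKM ratio of each gene in K36M against WT cells at D0, D2, and D7, in K36M against WT cells with ectopic PPARγ, and in Nsd2 KD against Ctrl cells, with 95% counting intervals and dashed lines at a 2-fold ratio. All 7 genes are below -1 at D7 and with Rosi, and at D2 *Mgll* is at 0.70 in K36M and at -1.89 in Nsd2 KD cells.

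With ectopic PPARγ, Rosi-treated WT cells had all 7 genes over 2-fold above DMSO (17% of all genes). *G0s2* was 119-fold higher, *Lipe* 23.9-fold, *Mgll* 19.8-fold, *Pnpla2* 13.97-fold, *Aqp7* 10.3-fold, *Pnpla3* 4.82-fold, and *Abhd5* 3.02-fold. In K36M cells 5 of 7 were over 2-fold higher with Rosi (18.3% of all genes). *Abhd5* was 1.46-fold higher, and *Pnpla3* had 5 reads with Rosi and 18 with DMSO.

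The Rosi response of K36M minus that of WT cells was -2.62 (-2.90 to -2.34) on the log2 scale for *Lipe*, -2.42 (-3.12 to -1.72) for *Mgll*, -1.88 (-2.09 to -1.67) for *Pnpla2*, -1.85 (-2.33 to -1.37) for *Aqp7*, and -1.05 (-1.28 to -0.83) for *Abhd5*. For *Pnpla3* it was -3.17 (-4.87 to -1.47), with 5 reads in K36M cells with Rosi. The *G0s2* response was 133-fold in K36M and 119-fold in WT cells, a difference of 0.16 (-1.12 to 1.44). *G0s2* was 5.23-fold lower in K36M cells with DMSO and 4.69-fold lower with Rosi. Its difference rests on 6 reads in K36M cells with DMSO, and its interval overlaps that of *Abhd5*. The call of *G0s2* with DMSO was lost with a pseudocount of 1. With DMSO, *G0s2* was the 1 gene of 7 over 2-fold lower in K36M cells (8.31% of all genes), from 6 reads against 28, and *Mgll* was the 1 gene over 2-fold higher (23.9%), at 2.51-fold.

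With Rosi, all 7 genes were over 2-fold lower in K36M than WT cells (12.6% of all genes), with a median log2 ratio of -1.97 against 0.029 over all genes. *Lipe* was 9.74-fold lower, the furthest of the 7, and *Mgll* 2.14-fold, the least. Among the adipocyte markers, the log2 ratio was -4.55 for *Adipoq*, -4.18 for *Cebpa*, -3.62 for *Plin1*, -2.40 for *Cidec*, -1.13 for *Fabp4*, and -0.41 for *Pparg*, with *Ucp1* at 0 in both libraries and *Cidea* at 0 in K36M cells. The sum over the 8 markers went from 3165 in WT to 1245 in K36M cells and was mostly *Fabp4* (2505 and 1148). The summed preadipocyte and fibroblast markers were 764 in WT and 521 in K36M cells, mostly *Col1a1* (670 and 468). *Thy1* (3.45 and 13.4), *Dlk1* (4.50 and 5.39), and *Cd34* (0.196 and 0.256) were higher in K36M cells. The part of either list in the result was not tested.

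The balance of the inhibitor and the activator against ATGL in transcript level differed between libraries. In the 6 libraries before induction or without Rosi, the RPKM ratio of *G0s2* to *Pnpla2* lay between 0.0384 and 0.297. It was above 1 in WT cells at D2 (1.17) and D7 (1.42), K36M cells at D7 (1.40), WT and K36M cells with Rosi (1.65 and 1.35), and Ctrl cells at D2 (2.23). It stayed below 1 in K36M cells at D2, at 0.739 (0.673 to 0.810), and in Nsd2 KD cells at D2, at 0.477 (0.379 to 0.594). K36M cells at D7 had the same ratio of inhibitor to lipase as WT cells within counting error, although both genes were over 13-fold lower.

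Outside Nsd2 KD cells, the ratio of *Abhd5* to *Pnpla2* fell from D0 to D2 and from DMSO to Rosi. The ratio of *G0s2* to *Pnpla2* rose in each of these pairs. From D2 to D7 the K36M libraries rose in both ratios, so the opposite direction did not hold throughout. For *Abhd5* to *Pnpla2*, KD cells at D0 and D2 were not separated by counting error. WT cells had ratios of 2.97, 0.970, and 0.261 at D0, D2, and D7, and K36M cells 1.67, 0.835, and 1.15. Between DMSO and Rosi it went from 1.12 to 0.242 when WT and from 1.01 to 0.386 when K36M. Ctrl cells went from 1.64 to 0.718 between D0 and D2, while KD cells had 1.53 and 1.46. The activator thus exceeded the lipase in transcript level at D7 in K36M cells and at D2 in KD cells, and was below it in the matched control libraries.

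The ratio of *Mgll* to *Lipe* was 0.450, 0.261, and 0.178 at D0, D2, and D7 in WT cells, against 0.285, 1.40, and 0.688 in K36M cells. Between D0 and D2 it went from 0.235 to 0.175 in Ctrl cells and from 0.562 to 1.14 in KD cells. The PPARγ cells had 0.0628 and 0.0520 with DMSO and Rosi when WT, and 0.249 and 0.237 when K36M. At D2, D7, and with Rosi, the perturbed library was thus above its control in this ratio, in each case beyond counting error, although *Mgll* itself was lower than in the control in all of them but K36M at D2. These are ratios of transcript levels, and protein was not measured in these files.

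**Figure D4:**
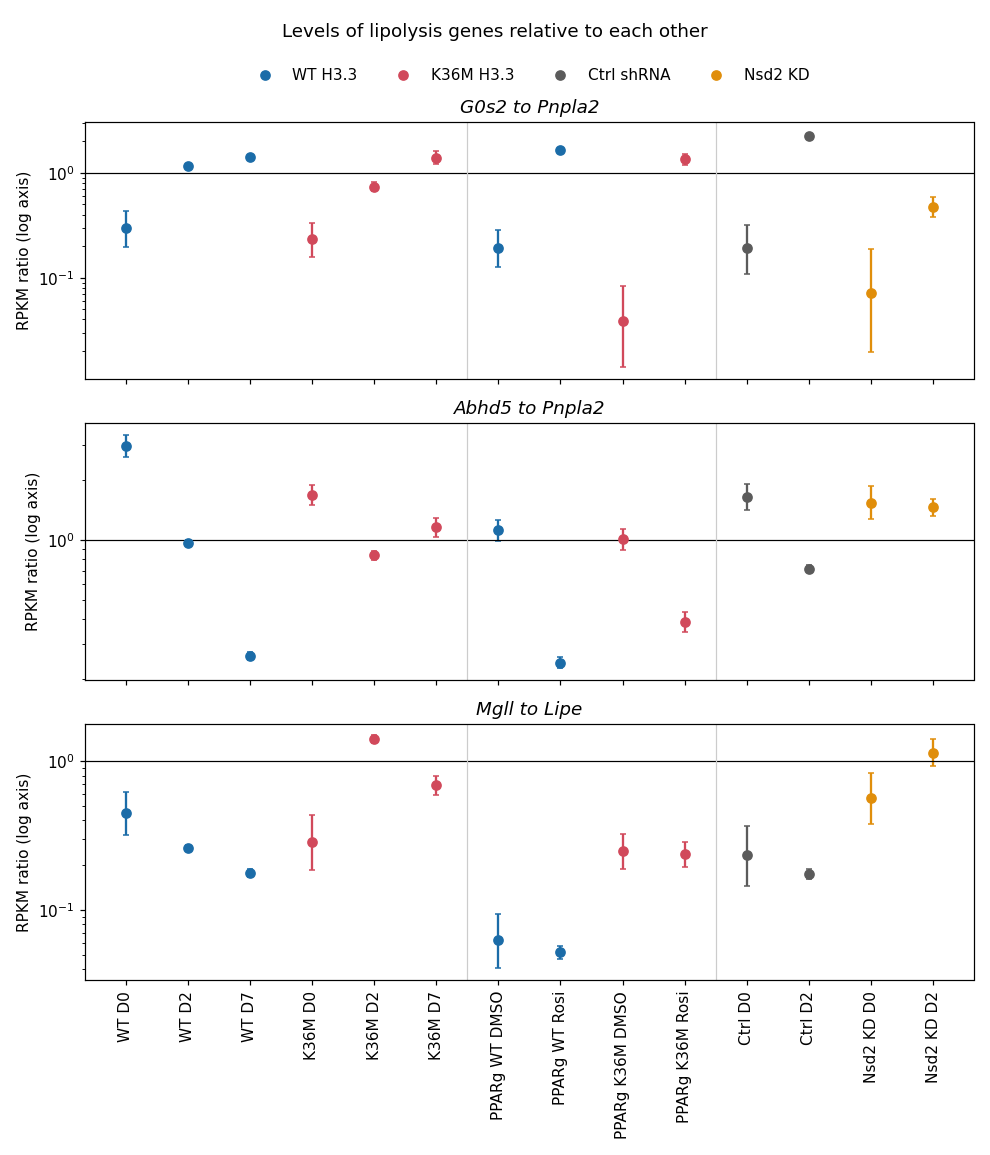
RPKM ratio (log axis) of *G0s2* to *Pnpla2*, *Abhd5* to *Pnpla2*, and *Mgll* to *Lipe* in the 14 libraries, with 95% counting intervals and a line at equal RPKM. *G0s2* is below *Pnpla2* in all D0 and DMSO libraries (at most 0.297), and *Mgll* is above *Lipe* in K36M cells at D2 (1.40) and in Nsd2 KD cells at D2 (1.14, with an interval from 0.925 to 1.42).

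The genes whose log2(RPKM + 1) followed each member most closely over the 14 libraries were taken among 10519 genes that reached 5 RPKM. These correlations describe libraries that share experiments and differentiation state. *Pnpla2* and *Lipe* were each other's closest gene (r = 0.982), and *Pex16*, a peroxisome assembly factor, was next for both (0.974 and 0.978). *Cidec*, a droplet fusion protein, completed the list of *Lipe* (0.975), and *G0s2* that of *Pnpla2* (0.973). *G0s2* was closest to *Cd36*, a fatty acid transporter (0.973).

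*Abhd5* was closest to *Ssh2*, *Pde3b*, and *Mfsd8* (0.978, 0.976, and 0.975), of which *Pde3b* encodes the phosphodiesterase through which insulin lowers cAMP in fat cells. *Mgll* was closest to *Slc25a42*, *Pex13*, and *Txlng* (0.966, 0.961, and 0.951). *Pnpla3* was closest to *Adora1*, an adenosine receptor that inhibits lipolysis, *Acvr1c*, and *Rnf144b* (0.986, 0.981, and 0.969). Like *Pnpla3*, *Adora1* passed 1 RPKM in WT cells at D7 (8.58) and in no other library. *Aqp7* was closest to *Ubd*, *Abi3*, and *Trem2* (0.933, 0.915, and 0.904). *Trem2* is known from macrophages. Of 5 macrophage and leukocyte markers, the summed RPKM was 0.0442 to 3.34, with *Ptprc* at most 0.0391 and *Csf1r* highest at 2.95 in K36M cells with DMSO. *Pnpla3* and *Aqp7* had r of at most 0.643 with the other members, whereas *Pnpla2*, *Lipe*, *Mgll*, *Abhd5*, and *G0s2* had 0.851 to 0.982 among themselves.

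Of 10 droplet proteins that gate lipolysis or carry its products, 7 were over 2-fold higher at D2 than D0 in WT cells (13.6% of all genes), with a median log2 ratio of 2.02. *Plin1*, *Cidec*, *Fabp4*, and *Cidea* are also in the list of adipocyte markers, so the 2 lists are not separate readings. *Plin1*, which holds ABHD5 at the droplet, went from 0.503 to 36.8 RPKM, and *Cidec* from 0.604 to 138. At D7, 6 of the 10 were over 2-fold lower in K36M than WT cells (13.2% of all genes) and none was higher (19.7%), with a median log2 ratio of -1.80 and *Plin1* at 144 in WT and 9.33 in K36M cells. In Nsd2 KD against Ctrl cells at D2, 7 were lower (18.5% of all genes), with a median log2 ratio of -2.55 and *Cidec* at 24.6 in Ctrl and 1.06 in KD cells. Of these 7, *Plin5* had 1 read against 8, and the 1 gene counted as higher (12%), *Cidea*, had 2 reads against 0 with a log2 interval from -2.22. With Rosi, 6 were lower in K36M than WT cells (12.6% of all genes), among them *Cidea* from 0 reads against 1, and 2 were higher (28.4%). These 2 were *Plin2*, which coats droplets in most cells, at 742 in K36M and 322 in WT cells, and *Plin5*, at 5.83 and 1.31. Among genes of at least 1 RPKM in either library, 7.02% were over 2-fold higher with Rosi in K36M than WT cells. *Plin2* also went from 99.7 at D0 to 294 at D2 in WT cells, and was within 2-fold at D7 (146 in K36M and 153 in WT cells) and in KD against Ctrl cells at D2 (137 and 205).

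Of 18 other lipases and phospholipases, 3 were over 2-fold lower in K36M than WT cells at D7 and 1 was higher, against 13.2% and 19.7% of all genes, and the median log2 ratio was 0.043. These 3, a share near that of all genes, were *Lpl*, which frees fatty acids from lipoproteins outside the cell (1817 and 284 RPKM in WT and K36M), *Pnpla8* (26.8 and 13.4), and *Pnpla5*, from 0 reads against 1, and the higher one was *Nceh1* (0.974 and 4.55). In Nsd2 KD against Ctrl cells at D2, 4 were lower and 1 higher, against 18.5% and 12% of all genes (median log2 ratio -0.40), with *Lpl* at 105 in KD and 1073 in Ctrl cells and *Ces1f* at 0 reads against 2. *Lipa*, the lysosomal acid lipase, was within 2-fold in both comparisons.

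Of 18 genes of adrenergic and cAMP control, 8 were over 2-fold higher at D2 than D0 in WT cells (13.6% of all genes) and 9 were in Ctrl cells (17.3%), with median log2 ratios of 0.68 and 0.77. Both counts include *Adora1*, from 4 and 9 reads against 0. The phosphodiesterase genes *Pde3b* and *Pde4d* had 107 and 53.2 RPKM at D2 in WT cells, from 4.71 and 4.49 at D0. *Prkar2b*, a regulatory subunit of protein kinase A, went from 9.61 to 133. At D7, 6 of 18 were over 2-fold lower in K36M than WT cells (13.2% of all genes) and 1 was higher (19.7%), with a median log2 ratio of -0.26. *Adrb3*, the β-adrenergic receptor of fat cells, was at 11.6 RPKM in WT cells and 1.05 in K36M cells at D7, and at 6.70 and 0.593 with Rosi. In Nsd2 KD against Ctrl cells at D2, 5 were lower (18.5% of all genes) and 2 higher (12%), with a median log2 ratio of -0.045. *Adra2a*, a receptor that opposes lipolysis, had 42.5 RPKM in KD and 6.51 in Ctrl cells, while the catalytic subunit gene *Prkaca* had 30.7 and 31.7.

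Of 5 genes of glycerol handling besides *Aqp7*, 3 were over 2-fold lower in K36M than WT cells at D2 (9.9% of all genes), 1 was lower and 1 higher at D7 (13.2% and 19.7%), and 4 were lower in Nsd2 KD than Ctrl cells at D2 (18.5%). *Aqp9* and *Pck1* counted among the lower genes in both D2 comparisons from at most 10 reads in any of the libraries, and the gene higher at D7 was *Aqp3*, at 1.58 against 0.256 RPKM. *Gpd1*, which makes the glycerol backbone of triglyceride from a glycolytic intermediate, was at 16.5 RPKM in WT cells and 3.09 in K36M cells at D2, 262 and 20.1 at D7, and 18.6 in Ctrl and 0.346 in KD cells at D2. *Gk*, glycerol kinase, had 9.94 in WT and 14.5 in K36M cells at D2 and 5.19 and 3.49 at D7, both within 2-fold, and 5.68 and 2.73 in Ctrl and KD cells at D2. The other aquaglyceroporins *Aqp3* and *Aqp9* had at most 1.58 and 0.687 RPKM in any library, against 17.8 for *Aqp7*.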

How the data were processed

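The 14 RNA-Seq libraries, 1 per condition, were made from mRNA (Dynabeads, NEBNext Ultra II, Illumina HiSeq). The authors deposited RPKM for 29082 RefSeq transcripts per library, with mm9 named in the submitters' processing notes. The RNA-Seq mapper, counter, use of strand, and low-value filters are not given in the sources used here. The ChIP-Seq samples were not analysed here.

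Symbols came from RefSeq gene records by transcript accession (28436 transcripts, 97.8%), and gene positions from GENCODE M1. Whole reads and library totals were recovered from the RPKM, for 26945 of the 26946 transcripts that 2 or more libraries detected, and the recovery and calls were tested on simulated data. The simulated calls covered only transcripts with many reads, so calls from few reads were not checked by them. RPKM uses the mapped reads of a library as its scale, so a few abundant genes can shift all others. Genes above 0 in at least 1 of 2 libraries were compared over 17 comparisons, and a ratio over 2-fold was called. The shares of all genes include many of low level, and each was smaller among genes of at least 1 RPKM in either library. Intervals are 95% Clopper-Pearson intervals of reads, exact Poisson intervals for levels, and delta-method intervals for differences between responses. No test across conditions was possible without replicates.

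All 7 members are named, with the 3 genes of highest correlation to each, and listed genes past 2-fold or bearing on a member. The members and lists were chosen with earlier results of these data known. Of the listed markers, *Cd68* was not matched, and *Gyk* was matched as *Gk*. Alternatives were pseudocounts of 0.1 and 1, RPKM of at least 1, rescaling by the median ratio, the mean over transcripts, and calls whose interval excluded 1. Promoter sequences are from RefSeq (GRCm38.p6) and were placed on mm9 by exact match. Python 3.11.15, pandas 2.3.3, numpy 2.4.6, scipy 1.17.1, and matplotlib 3.10.9 were used.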

Additional observations from a re-analysis of the deposited data

Results flagged for a closer look

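Several genes had log2 ratios of opposite sign under the same contrast, each with a counting interval that excluded 0. With 1 library per condition, these differences between groups were not tested. From D2 to D7, the log2 ratio was 0.74 in WT and -2.02 in K36M cells for *Pnpla2*, 0.063 and -2.01 for *Lipe*, 1.02 and -1.09 for *G0s2*, and 2.69 and -1.51 for *Aqp7*. The *Lipe* ratio in WT cells was only 1.04-fold, so its level there was nearly unchanged. In K36M against WT cells, *Pnpla2* had 0.54 at D0, -0.97 at D2, and -3.73 at D7. *Mgll* had -0.78 at D0, 0.70 at D2, and -1.83 at D7, and *Aqp7* had 1.32 at D2 and -2.87 at D7. In the PPARγ cells, *Mgll* had 1.33 with DMSO and -1.10 with Rosi in K36M against WT cells. In Nsd2 KD against Ctrl cells, *Mgll* had 1.07 at D0 and -1.89 at D2, and *Aqp7* had 3.88 at D0, from 13 reads against 1, and -1.22 at D2, from 9 against 24.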

How the results depend on the processing

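No paired analysis was possible because each condition had 1 library and the labels give no replicate numbers. Of the 17 counts of genes over 2-fold, 14 stayed within 1.5 times under all 6 alternatives. K36M against WT at D0 went from 1 gene to 0 with RPKM of at least 1, with the counting interval, and with either pseudocount. K36M against WT with DMSO went from 2 genes to 1 with RPKM of at least 1 and to 0 with a pseudocount of 1. Nsd2 KD against Ctrl at D0 went from 3 genes to 0 with RPKM of at least 1 and with a pseudocount of 1. All these genes were below 2 RPKM. Of 119 single ratios, the call changed for 8 with a pseudocount of 0.1, for 21 with a pseudocount of 1, for 2 with rescaling, and for 0 with the mean over transcripts, and no ratio changed sign. The calls lost with a pseudocount of 1 included those of *Aqp7* in K36M against WT at D2, *Mgll* in K36M against WT with Rosi, and *Lipe* from D0 to D2 in Nsd2 KD cells. Differences among *Pnpla3*, *Aqp7*, and the D0 levels of *G0s2* and *Mgll* are limited by depth.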
